A study of Mus musculus with 163 samples.

Results

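Oocytes that completed their growth inside cultured follicles were compared with oocytes that grew in the ovary. The comparison holds every fully grown oocyte (FGO) that the sample labels call 6dpp follicle-derived, 24 oocytes, and every FGO that they call in vivo-derived, 20 oocytes. Together these are 44 of the 163 single oocytes of the series. The first group, called 6 dpp FGOs here, came from follicles cultured from 6-day-old mice (6 days post partum, dpp), and the second group, called in vivo FGOs, was isolated directly from mice. The study set oocytes made or grown in vitro against oocytes from animals, to separate the steps of culture, and this pair differs by in vitro growth (IVG) alone in that scheme. The IVG medium held serum, ascorbic acid and follicle-stimulating hormone, and in the first days also the proteins BMP15 and GDF9. Genotype, strain, animal, litter and culture were not given for these oocytes in the sources used here, so the group, the animals and the culture cannot be told apart. Zonae and follicle cells were taken off each oocyte before lysis, per the labels, and 1 Smart-seq2 library of polyadenylated RNA was made from each.

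A mouse oocyte grows inside a follicle, joined to its granulosa cells by gap junctions and thin projections. During growth it stores the messenger RNAs and proteins that the embryo uses until its own genome is switched on. Among these stores are the subcortical maternal complex and its NLRP relatives, which early cleavage needs. The mouse oocyte is also known to make little cholesterol itself and to rely on its granulosa cells for it, and in most cells the transcription factor SREBP2 switches on the genes of cholesterol synthesis and uptake when sterol is short.

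Since no label names an animal or a culture, the oocytes cannot stand as replicates, and a group is treated as 1 sample. No test was therefore made and no difference has a replicate check. Reads of a group were summed and expressed as pooled counts per 1000000 reads (CPM). A ratio here means log2 of (pooled CPM + 0.5) in 6 dpp FGOs minus the same log2 in in vivo FGOs, and the added 0.5 shrinks the difference for genes with few reads. The spread is given as the lowest, median and highest CPM over the oocytes of a group. Totals were 4.80 to 7.86 M reads (M, 1000000) in 6 dpp FGOs and 6.44 to 8.79 M in in vivo FGOs. For a count of 0, the 1-sided 95% Poisson upper bound is about 3 reads. In 1 oocyte this came to between 0.341 and 0.626 CPM. All 12 oocyte markers were detected in both groups, and their summed level ran from 22965 to 33542 CPM in 6 dpp FGOs and from 30586 to 47151 CPM in in vivo FGOs. These ranges overlap, with medians of 28084 and 41054 CPM.

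Some oocytes stood apart from their group. To place each oocyte on the path of growth, a score was taken from genes chosen in other oocytes. These were the gonad-derived and iPSC-derived ones, which were both cultured. The former came from gonads of embryos, and the latter from the induced pluripotent stem cell (iPSC) line that the labels call BVSC-iPSC. The score is the mean log2(CPM + 1) of 63 genes that were at least 4-fold higher in FGOs than in growing oocytes (GROs) of both sources, minus the mean of 214 genes that were at least 4-fold lower. In vivo GROs scored -3.7 to -2.31. The 6 dpp FGOs formed a tight group, with oocyte 12 at 1.62 and the others from 2.25 to 3.1, a median of 2.59 and an SD of 0.27 over oocytes. The in vivo FGOs spread from -2.22 to 3.14, with a median of 2.33 and an SD of 1.6. Of the 20 in vivo FGOs, 7 lay below every 6 dpp FGO, namely oocytes 7, 22, 5, 19, 1, 4 and 16, at -2.22, -0.85, -0.72, -0.17, 0.51, 1.03 and 1.07. Although they carry the label of fully grown oocytes, oocytes 7, 22, 5 and 19 were nearer on this score to the GROs than the other in vivo FGOs were. Of these, 0 scored below the highest in vivo GRO. The highest gonad-derived and iPSC-derived GROs scored -0.63 and -1.55. Oocytes 7, 22 and 5 thus lay within the range of gonad-derived GROs, and oocyte 7 also within that of iPSC-derived GROs. The score rests on genes chosen in cultured oocytes, and how far that choice sets its level in in vivo FGOs was not tested.

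**Figure D1:**
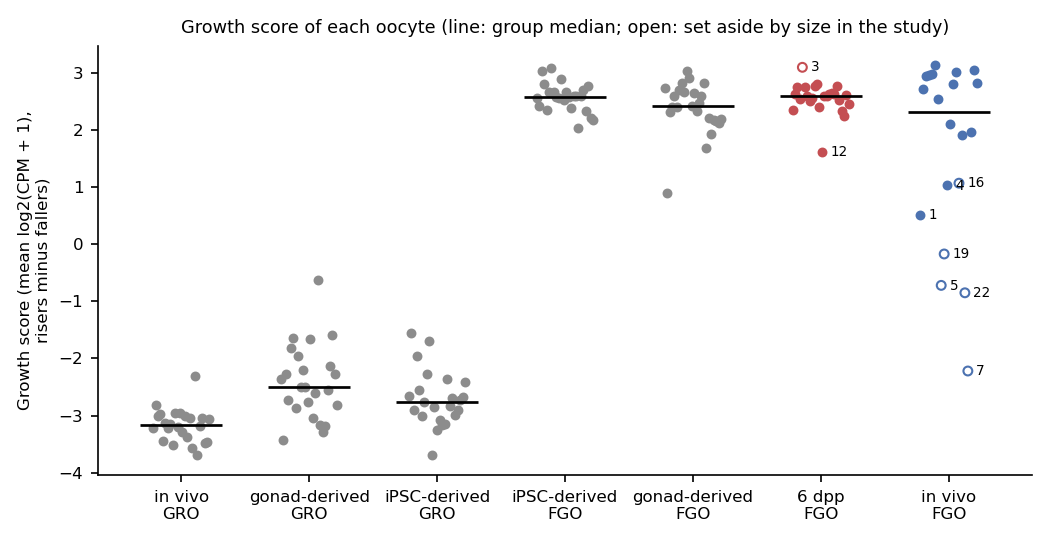
Growth score (log2 units) of each oocyte in the 7 groups of the series, 1 point per oocyte, with bars at medians, open points for the 6 dpp and in vivo FGOs that the study left out by size, and numbers naming oocytes. The 6 dpp FGOs lie between 1.62 and 3.1, while the in vivo FGOs run from -2.22 to 3.14, with 7 of 20 below every 6 dpp FGO.

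The study left oocytes out of its own fits by size, and this removed 1 of the 6 dpp FGOs (3) and 5 in vivo FGOs (5, 7, 16, 19 and 22). Results are given with all oocytes first and, where it matters, without those 6. Without them the median score of the 15 remaining in vivo FGOs was 2.8 and the lowest 0.51. In addition, 6 dpp FGO 12 stood out in follicle cell markers. Its 16 granulosa markers summed to 2208 CPM, against 489.6 to 838 CPM in the other 6 dpp FGOs and 473 to 818 CPM in in vivo FGOs. Gja1 alone made up 1208 CPM of this sum. Hsd17b1 and Fst were also highest there, at 63.5 and 11.4 CPM. Fshr and Cyp19a1, at 11.7 and 96.7 CPM, were exceeded in 6 dpp FGOs 5 and 17, and Amh was 0 CPM. Most of the granulosa sum elsewhere came from Esr2 and Serpine2, which the oocytes of both groups held at similar pooled levels. The theca and stroma markers summed to 198 CPM in 6 dpp FGO 12 and 80.7 CPM in 6 dpp FGO 10, and to 3.31 to 13.8 CPM in in vivo FGOs. In oocytes lysed singly, more follicle cells left on an oocyte and more RNA per such cell cannot be told apart.

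Most genes had similar levels after growth in culture and in the ovary. Of 13582 genes with CPM above 1 in at least 3 of the 92 FGOs of the series, 166 (1.22%) were at least 2-fold higher and 404 (2.97%) at least 2-fold lower in 6 dpp FGOs. The edgeR coefficient gave 472 and 769 such genes, and a pseudocount of 0.1 CPM 347 and 716. At 4-fold the counts were 12 (0.0884%) and 36 (0.265%), of which the first fell to 5 without 6 dpp FGO 12 and the second to 21 without in vivo FGO 19, while the edgeR coefficient gave 88 and 127. The median ratio over all genes was -0.04 and the median absolute ratio 0.25. Without the 6 oocytes left out by size, 261 genes (1.92%) were at least 2-fold higher and 299 (2.20%) lower, so the surplus of lower genes shrank, and at 4-fold it turned round, with 28 genes (0.206%) higher and 17 (0.125%) lower. Of the genes past 2-fold there, 136 and 247 genes were also past 2-fold with all oocytes.

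Genes that go down during oocyte growth made up part of the lower set. Of the 404 genes at least 2-fold lower in 6 dpp FGOs, 86 (21.3%) belonged to the growth genes that fell, which are 1.57% of the genes measured. Without the 6 oocytes it was 18 of 299 (6.02%). The median ratio of the falling genes moved from -0.89 to -0.15, and that of the rising genes from 0.37 to 0.06. A part of the difference between the groups thus moved with 5 in vivo FGOs and 1 6 dpp FGO, and it is given for each gene below. Among in vivo FGOs, the first principal component of 8213 genes held 48.4% of the variance and followed the growth score (Spearman rho 0.96 in size over 20 oocytes of the same libraries, a description). Among 6 dpp FGOs it held 15.8%, and oocyte 3 lay 2.95 times as far out as the next.

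**Figure D2:**
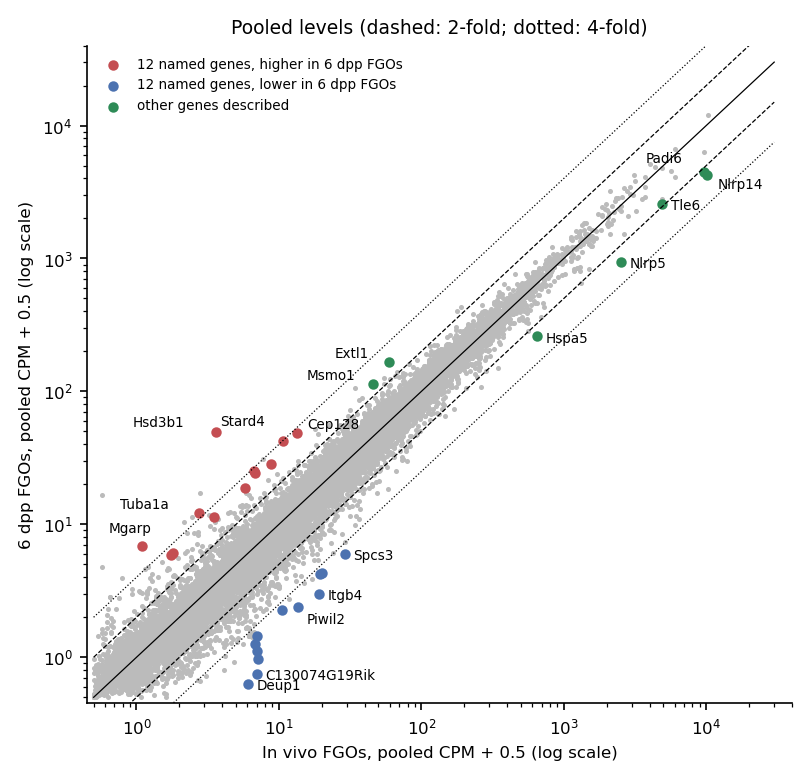
Pooled CPM + 0.5 of each gene in in vivo FGOs (x) and 6 dpp FGOs (y), both on log scales, with the 12 named genes of each direction and other genes of the text in colour. Most genes lie between the dashed 2-fold lines, and 12 and 36 genes lie past the dotted 4-fold lines above and below.

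Levels of 41 genes did not overlap at all between the 24 and the 20 oocytes. Of these, 10 (0.0736% of genes) were higher in every 6 dpp FGO than in any in vivo FGO and 31 (0.228%) were lower. Only 4 of the higher genes and 9 of the lower genes were also at least 2-fold apart in pooled CPM. The subcortical maternal complex and NLRP genes gave 5 of the 31 lower genes, and the cholesterol genes gave 2 of the 10 higher genes.

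Genes of the subcortical maternal complex and the NLRP family lay mostly on the lower side, a few of them past 2-fold. The complex is a store of maternal proteins under the oocyte membrane, built of NLRP5, TLE6, OOEP and KHDC3 among others. Of 17 members measured, 15 had a ratio below 0, as had 54.2% of all genes, 3 were at least 2-fold lower, beside 2.97% of all genes, and 0 were higher by that much, and the median was -0.54 against -0.04 over all genes. The counts without the 6 oocytes were the same, 3 lower and 0 higher, with a median of -0.56. Pooled Nlrp14 was 14810.2 CPM in in vivo GROs, above both groups of FGOs.

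Nlrp14 (gene ID 76858, chr7:107113455-107198103, GRCm38) ran from 3082 through a median of 4220.4 to 6315 CPM in 6 dpp FGOs and from 6919 through 9852 to 13147 CPM in in vivo FGOs. The groups did not overlap, and the ratio was -1.24 with all oocytes and -1.18 without those left out by size. Its level was lower in in vivo FGOs of higher score (rho -0.74 over 20 oocytes, a description). Its pooled levels were 4279 CPM (95% Poisson interval 4269 to 4289) and 10114 CPM (10097 to 10129.9), where the intervals hold counting error alone, as reads copied by amplification and lacking molecular identifiers do not each stand for 1 molecule.

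Nlrp5, also called MATER, a maternal effect gene, ran from 672 through 869.8 to 1645 CPM in 6 dpp FGOs and from 1335 through 2456 to 3602 CPM in in vivo FGOs. The groups overlapped only at their edges, and the ratio was -1.42. Padi6, a peptidylarginine deiminase needed for the cytoplasmic lattices of the oocyte, had 3311, 4406 and 6616 CPM against 6223, 9696 and 12073 CPM, with a ratio of -1.10. Tle6, the partner that the complex needs to form, had 1868, 2560.1 and 3269.7 CPM against 3489, 4893 and 5992 CPM, so every 6 dpp FGO lay below every in vivo FGO, at a ratio of -0.94.

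Nlrp9b, Nlrp9c and Nlrp4b were also lower in every 6 dpp FGO, with ratios of -0.92, -0.70 and -0.54, and the first of them was also lower at higher score in in vivo FGOs (rho -0.81). These NLRP genes lie in clusters of close copies on mouse chromosome 7, so reads shared by copies are missing from the counts. Not all of the group shared the difference. Ooep differed by -0.36, with 20 of 24 6 dpp FGOs below the lowest in vivo FGO. Nlrp4f was level at -0.02. Khdc3 and Zbed3, a further component of the complex, had ratios of 0.34 and 0.22, and their oocytes overlapped between the groups.

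Genes of cholesterol supply lay mostly on the higher side, a few of them past 2-fold. Of 29 measured, 23 had a ratio above 0, as had 45.8% of all genes, 4 were at least 2-fold higher, beside 1.22% of all genes, and 0 lower, with a median of 0.25 against -0.04 over all genes. Without the 6 oocytes left out by size 5 were at least 2-fold higher, with a median of 0.35. SREBP factors act through short sites near gene starts, and the sequence before the start of the members that hold the sterol element letters TCACNCCA is shown, since 3 of the 20 members with a promoter window in the RefSeq tables of GRCm38.p6 hold them on either strand in the 250 bases before the start, as do 4.20% of all 27025 genes with such a window. The windows are chr8:64733579-64733828 on the minus strand for Msmo1, chr13:119690101-119690350 on the plus strand for Hmgcs1 and chr15:82147019-82147268 on the plus strand for Srebf2, read 5′ to 3′ toward the gene, with the match in capitals. The match begins 177, 137 and 162 bases before the start. It is a match of letters and says nothing of binding in these oocytes. Stard4, which had the largest ratio of the list at 1.99, is not among the 3 genes shown.
Msmo1: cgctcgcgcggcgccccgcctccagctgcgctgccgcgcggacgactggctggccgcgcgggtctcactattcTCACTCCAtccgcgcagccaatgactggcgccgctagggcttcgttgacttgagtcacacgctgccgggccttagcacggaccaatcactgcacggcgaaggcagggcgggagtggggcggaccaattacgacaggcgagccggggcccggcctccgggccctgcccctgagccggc
Hmgcs1: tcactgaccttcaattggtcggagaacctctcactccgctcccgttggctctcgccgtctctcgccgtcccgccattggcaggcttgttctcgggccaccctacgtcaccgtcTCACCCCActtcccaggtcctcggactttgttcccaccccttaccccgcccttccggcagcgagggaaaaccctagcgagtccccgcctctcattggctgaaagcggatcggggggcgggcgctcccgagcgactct
Srebf2: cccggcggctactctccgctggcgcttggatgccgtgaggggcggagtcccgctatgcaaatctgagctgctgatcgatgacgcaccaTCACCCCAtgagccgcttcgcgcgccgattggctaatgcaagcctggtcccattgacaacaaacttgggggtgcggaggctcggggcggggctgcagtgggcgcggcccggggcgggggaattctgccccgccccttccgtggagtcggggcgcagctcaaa

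Msmo1 (gene ID 66234, chr8:64718123-64733578), a sterol-C4-methyl oxidase of the late part of cholesterol synthesis, ran from 59.3 through 111 to 195 CPM in 6 dpp FGOs. In in vivo FGOs it ran from 35.2 through 44.9 to 58.5 CPM. Every 6 dpp FGO thus lay above every in vivo FGO, and the ratio was 1.31, or 1.36 without the 6 oocytes.

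Stard4, a carrier that moves cholesterol between membranes and a known SREBP2 target, ran from 19.0 through 40.2 to 122 CPM in 6 dpp FGOs. It ran from 6.10 through 10.0 to 15.0 CPM in in vivo FGOs, again with no overlap, and the ratio was 1.99. Leaving out any single oocyte kept it between 1.87 and 2.02. Its level in in vivo FGOs did not follow the growth score (rho -0.00 over 20 oocytes).

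Srebf2, which encodes SREBP2 itself, ran from 8.01 through 12.2 to 33.6 CPM against 3.25 through 5.09 to 10.9 CPM, with a ratio of 1.28, and 18 of 24 6 dpp FGOs lay above the highest in vivo FGO.

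Other steps of the pathway differed less. Srebf1 was at 0.82, Fdps at 0.71, Idi1 at 0.68, Hmgcs1 at 0.45 and Insig1 at 0.25. Sqle and Cyp51, which act before MSMO1 in the pathway, were level at -0.10 and 0.02. Hsd17b7, whose product acts beside MSMO1, was at -0.42, and Scarb1, the receptor for high-density lipoprotein, at -0.57. The difference was therefore uneven along the pathway.

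**Figure D3:**
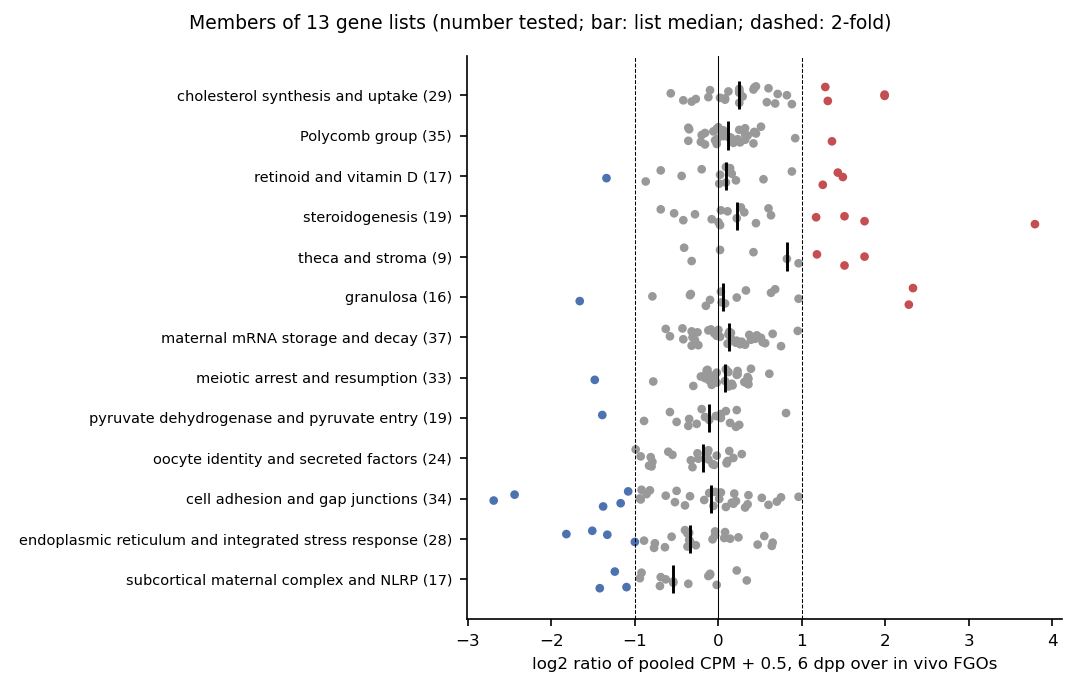
Log2 ratio of pooled CPM + 0.5 (6 dpp over in vivo FGOs) of each measured member of 13 gene lists, 1 point per gene, with the list median as a bar and points past 2-fold in colour. The maternal complex list has its median at -0.54 with 3 genes past 2-fold on the lower side, and the cholesterol list at 0.25 with 4 past 2-fold on the higher side.

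Several chaperones of the endoplasmic reticulum had lower levels after culture, and others did not. Of 28 genes of the endoplasmic reticulum and integrated stress response measured, 4 were at least 2-fold lower, beside 2.97% of all genes, and 0 higher, with a median of -0.35. Without the 6 oocytes 1 gene, Hspa5, remained at least 2-fold lower, and the median was -0.21. Hspa5 (also BiP), the main chaperone of this compartment, ran from 111 through 242 to 508 CPM in 6 dpp FGOs and from 363 through 662 to 874 CPM in in vivo FGOs. The ranges overlap in their outer parts, and the ratio was -1.33, or -1.41 without the 6 oocytes.

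Pdia3, which folds secreted glycoproteins with its partner calreticulin, had medians of 139 and 287 CPM, with overlap from 178 CPM upward, and had a ratio of -0.93 without the 6 oocytes. Calr, which encodes calreticulin, and Pdia4 had ratios of -0.77 and -0.76, and these moved to -0.69 and -0.86. The co-chaperones Dnajb11 and Dnajb9 had ratios of -0.04 and 0.24. The other calls of this list moved with those oocytes. Selenos and Xbp1, whose pooled levels in in vivo GROs were 39.0 and 52.3 CPM, had ratios of -1.82 and -1.51 with all oocytes and -0.65 and -0.48 without those left out. Stress-induced genes of the same list lay on both sides of 0, with Ddit4 at 0.65, Atf5 at 0.64, Atf4 at -0.34 and Atf3 at -0.89.

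Among 24 genes of oocyte identity, secreted factors and the egg coat, 18 had a ratio below 0, beside 54.2% of all genes, 6 above 0, and 0 passed 2-fold, beside 4.20% of all genes, with a median of -0.19, or -0.12 without the 6 oocytes. The zona pellucida genes Zp2, Zp1 and Zp3 were at -0.80, -0.79 and -0.55. Gdf9, a growth factor that the oocyte sends to its granulosa cells, ran from 3676 through 6523 to 8588 CPM against 5531 through 9841 to 11407 CPM, a ratio of -0.60. Its partner Bmp15 was at -0.31. The regulators Figla and Nobox were level, at -0.13 and -0.12. Sohlh1, a factor of early growth, was at -0.99 with all oocytes and at 0.01 without the 6.

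The 12 named genes on the lower side are those with the largest ratios among 159 (1.17% of genes) that kept 2-fold in pooled levels, in medians and with any oocyte left out. Of the 12, 7 belonged to the growth genes that fell, and their levels in in vivo FGOs followed the growth score over 20 oocytes, with rho from -0.95 to -0.86. For each gene, rho was taken against the score with that gene left out. The 7 genes and the rest of the falling set were chosen by the same rule, so a negative rho is no independent result. The 7 are Deup1, Mmp1b, Piwil2, Spcs3, Mapk11, Gin1 and Ugdh. The remaining 5 are C130074G19Rik, Itgb4, Pde2a, Adam8 and Gm7271.

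Deup1 (gene ID 234964, chr9:15559864-15628351), which builds centrioles in multiciliated cells, was at 0, 0 and 0.580 CPM in 6 dpp FGOs and at 0, 2.29 and 16.4 CPM in in vivo FGOs. The groups overlapped, with 13 of 20 in vivo FGOs above the highest 6 dpp FGO, and the in vivo FGOs of low score held the most. The ratio moved from -3.27 to -2.55 without the 6 oocytes. Of the 13 genes of its list measured, Deup1 was the only one at least 2-fold apart, beside 4.20% of all genes.

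Piwil2, a PIWI protein that silences transposons with small RNAs in germ cells, had 0, 1.81 and 4.52 CPM against 0.931, 8.42 and 38.9 CPM. Spcs3, a subunit of the signal peptidase, had 3.14, 4.84 and 13.4 CPM against 3.66, 16.5 and 69.0 CPM. Both overlapped between the groups, and their ratios moved from -2.53 to -1.81 and from -2.28 to -1.64 without the 6 oocytes. Pooled levels in in vivo GROs were 74.4 CPM for Piwil2 and 72.4 CPM for Spcs3. Mapk11, Gin1 and Ugdh moved likewise, from -2.22, -2.22 and -2.21 to -1.56, -1.57 and -1.29, and Mmp1b from -2.87 to -2.08.

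Genes lower after culture and not on the growth axis held their ratios better. C130074G19Rik (gene ID 226777, chr1:184871926-184883036) had 0, 0.165 and 1.14 CPM against 0.445, 5.05 and 20.2 CPM. Only the edges overlapped, with 21 of 24 6 dpp FGOs below the lowest in vivo FGO, and the ratio was -3.21 with all oocytes and -3.22 without the 6. Pde2a, a cyclic nucleotide phosphodiesterase, was at -2.64 and -2.45, with 18 of 24 below the lowest in vivo FGO. Gm7271 was at -2.28 and -2.20, and Adam8, a metalloprotease, at -2.44 and -2.01.

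Itgb4 (gene ID 192897, chr11:115974725-116008412) encodes the integrin subunit of hemidesmosomes. It ran from 0 through 2.59 to 5.31 CPM in 6 dpp FGOs and from 5.74 through 14.2 to 73.5 CPM in in vivo FGOs. The groups did not overlap, and the ratio was -2.69. It was lower in in vivo FGOs of higher score (rho -0.76 over 20 oocytes), with 73.5 CPM in oocyte 5 and 47.7 CPM in oocyte 7, and the ratio was -2.11 without the 6. Pooled Itgb4 in in vivo GROs was 3.02 CPM, below in vivo FGOs.

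**Figure D4:**
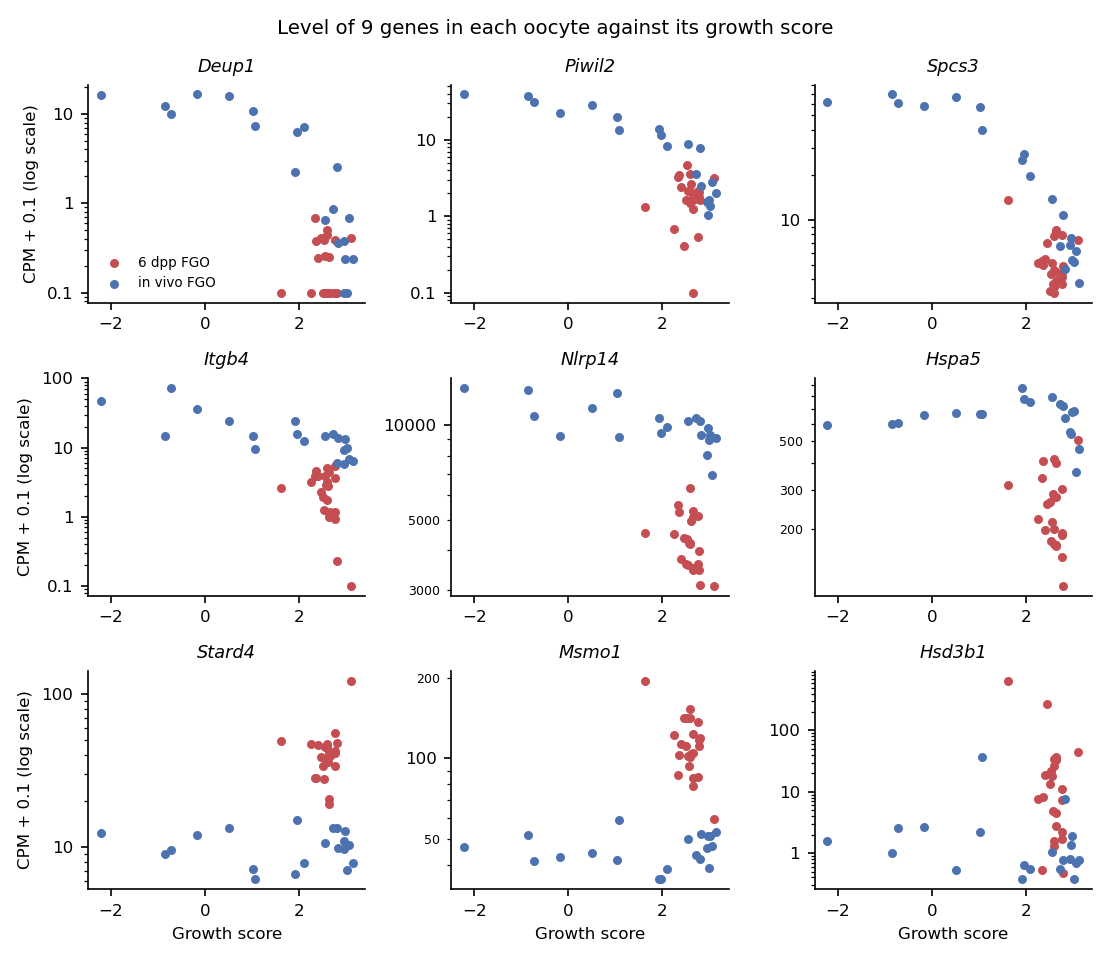
CPM + 0.1 (log scale) of 9 genes in each oocyte against its growth score, 6 dpp FGOs in red and in vivo FGOs in blue. Deup1, Piwil2 and Spcs3 are lower in in vivo FGOs of higher score and overlap the 6 dpp level at the top of the score, while Nlrp14, Stard4 and Msmo1 do not overlap between the groups. No 6 dpp FGO lies below a score of 1.62.

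Of the other genes that did not overlap on the lower side, Rgs19, which shortens G protein signals, had 2.31, 10.0 and 18.4 CPM against 20.6, 31.4 and 49.7 CPM and a ratio of -1.77. Kntc1, a kinetochore protein of the spindle checkpoint, was at -1.49, and Cenpf, another kinetochore protein, at -0.97. Styk1, a kinase-like membrane protein, ran from 64.2 through 107 to 151 CPM against 184 through 262 to 322 CPM. Its ratio was -1.27 and did not change by more than 0.01 without the 6 oocytes, when it was -1.26. Laptm4b, a lysosomal membrane protein, was at -1.01 and -0.86, and its level in in vivo FGOs followed the score (rho -0.86). Asz1, of the piRNA machinery, and Xrcc5, the Ku80 subunit of DNA repair, were lower in every 6 dpp FGO by the small ratios of -0.52 and -0.67.

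Clustered protocadherins filled much of the 4-fold set. The 13 measured transcripts of the alpha cluster all had ratios between -2.1 and -1.9, and 12 of the 36 genes at least 4-fold lower are these. Their counts are nearly the same reads, as 11 of them differed from Pcdha1 by under 5% of its reads, so that they are 1 measurement rather than 12. Counted once, 25 genes were at least 4-fold lower. Pcdha1 ran from 0 through 0.457 to 9.72 CPM and from 0.306 through 2.72 to 20.6 CPM, with overlapping groups. In vivo FGOs 15, 12, 11 and 19 held 20.6, 18.2, 17.1 and 15.7 CPM, and 6 dpp FGO 12 held 9.72 CPM, so a few oocytes set both pooled levels. Of 34 other adhesion genes, 5 were at least 2-fold lower and 0 higher, beside 2.97% and 1.22% of all genes, with a median of -0.08. With the oocytes left out by size removed 4 were lower and 2 higher, and without 6 dpp FGO 12 and in vivo FGOs 7 and 19 together 6 were lower and 0 higher. Besides Itgb4 and Adam8 these are Tyro3 at -1.38, Nectin2 at -1.17 and Cntn5 at -1.08, of which Tyro3 moved to -0.52 without the 6 oocytes.

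The 12 named genes on the higher side come from 54 (0.398% of genes) that passed the same rule, and none of them was a growth gene that rose or fell. Hsd3b1 (gene ID 15492, chr3:98842356-98859794), a steroid dehydrogenase of theca and luteal cells, had the largest ratio of the 12, 3.79. It ran from 0.381 through 9.51 to 644 CPM in 6 dpp FGOs and from 0.275 through 0.809 to 37.0 CPM in in vivo FGOs. Only 3 of 24 6 dpp FGOs lay above the highest in vivo FGO, oocytes 12, 10 and 3 at 644, 271 and 44.8 CPM. Mgarp, a mitochondrial protein of steroid-making cells, had 90.7 CPM in oocyte 12 and 29.2 CPM in oocyte 10 and a ratio of 2.66, which was 1.61 without oocyte 12 and 3.25 without in vivo FGO 16.

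Oocytes 12 and 10 also had the highest sums of theca and stroma markers, and further steroid genes followed them. Cyp11a1, the side-chain cleavage enzyme, was at 1.75 with all oocytes and at 0.31 without 6 dpp FGO 12 and in vivo FGOs 7 and 19. In the same way Cyp17a1 moved from 1.51 to 0.59, Akr1cl from 1.17 to 0.45, the retinaldehyde dehydrogenase Aldh1a1 from 1.49 to 0.57 and Lhcgr from 1.18 to 0.26. Of 19 steroidogenesis genes 4 were at least 2-fold higher with all oocytes, beside 1.22% of all genes, and 1 without those 3. Without the 6 oocytes left out by size it was 5. For 9 theca and stroma markers the counts were 3, 0 and 3 in the same order. Hsd3b1 itself was 2.73 without the 3, but 4.71 without in vivo FGO 16, which held the in vivo maximum, and 4.81 without the 6 oocytes left out by size. It was also present in 6 dpp FGOs 23, 14 and 7, at 36.7, 34.6 and 32.5 CPM, whose theca and stroma sums of 12.6, 12.4 and 4.83 CPM and granulosa sums of 614, 609.9 and 651 CPM lay within the in vivo range. Cyp17a1 was nevertheless 1.29, 1.63 and 0.755 CPM in oocytes 23, 14 and 7, above the in vivo maximum of 0.409 CPM. Insl3 was 1.03, 1.22 and 0 CPM there, and 0 CPM in every in vivo FGO. Oocyte 14 also held 23.2 CPM of Hsd17b1, a steroid dehydrogenase of granulosa cells. The part of follicle cell RNA in the ratio was not tested.

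Granulosa markers lay on both sides of 0. Of 16 measured, 2 were at least 2-fold higher and 1 lower, beside 1.22% and 2.97% of all genes, with a median of 0.06. Without the 6 oocytes 4 were higher and 1 lower. Grem1, an antagonist of bone morphogenetic proteins that granulosa cells make in response to the oocyte, was at a median of 1.87 CPM against 0 CPM, with 12 of 24 6 dpp FGOs above the highest in vivo FGO of 1.84 CPM, and had a ratio of 2.33. It was 2.14 without the 3 oocytes and 2.23 without the 6. Inhba, which was highest in 6 dpp FGO 12, moved from 2.28 to 1.07 without the 3. Amh, the granulosa hormone of growing follicles, was at or near 0 in 6 dpp FGOs, at most 0.138 CPM, and had a median of 0.387 CPM in in vivo FGOs, at a ratio of -1.66. The gap junction gene Gja1 turned from 0.96 to -0.36 without the 3 oocytes and reached 3.07 without the 6, so it has no stable direction here.

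Without the same 3 oocytes the other named genes on the higher side had ratios of 1.54 or more. Cep128, a centriole protein, ran from 4.96 through 39.0 to 94.7 CPM against 2.67 through 11.6 to 33.0 CPM, with 17 of 24 6 dpp FGOs above the highest in vivo FGO, and its ratio was 1.86. Tmc3 had 22 of 24 above at a ratio of 1.75, with 1.23, 4.94 and 9.76 CPM against 0, 1.25 and 2.85 CPM. Ammecr1 had 19 of 24 above at 1.69, and Ptgds, a prostaglandin D synthase, 18 of 24 above at 1.68. Htr5b, a serotonin receptor, was at 1.84, with 14 of 24 6 dpp FGOs above the highest in vivo FGO, oocyte 7 at 21.3 CPM. Tuba1a, an alpha-tubulin, was at 2.14 and Defb41, a beta-defensin, at 1.69.

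Tceal8 and Igsf21 were uneven over oocytes. Tceal8 ran from 0 through 9.42 to 111 CPM in 6 dpp FGOs, with 2 of 24 below every in vivo FGO and 4 of 24 above. Its ratio was 1.93, and 2.62 without in vivo FGO 14, which held 53.5 CPM. Igsf21 had a ratio of 1.76, with 6 of 24 below and 8 of 24 above.

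Extl1, which belongs to the family of heparan sulphate chain enzymes, was higher in every 6 dpp FGO, from 129 through 161 to 234 CPM. In in vivo FGOs it ran from 9.21 through 66.0 to 93.9 CPM, and the ratio was 1.49. The lowest in vivo values were in oocytes 22, 1 and 7, at 9.21, 13.9 and 16.0 CPM. Lurap1l was at 1.20, and Alg10b, a glucosyltransferase of N-glycan assembly, at 0.99. Dusp14, Dbf4, Il34, Pex13 and Zfand2a did not overlap either, with the small ratios of 0.59, 0.57, 0.53, 0.50 and 0.46.

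Of 35 Polycomb genes measured, 1 was at least 2-fold higher, near the 1.22% of all genes, and 0 lower, with a median of 0.11. Cbx7, a reader of the Polycomb mark on histone H3, had 1.75, 9.67 and 42.8 CPM against 0.991, 2.25 and 21.1 CPM, with a ratio of 1.36 that became 2.12 without the 6 oocytes. Cbx2, of the same family, was at 0.92 and 1.23. Of 30 genes of maternal chromatin and DNA methylation, 0 passed 2-fold, beside 4.20% of all genes. A ratio above 0 was seen for 12 of the 30, beside 45.8% of all genes, up to 0.93 for Tet2. Dnmt3a, Dnmt3l and Kdm1b were at -0.36, -0.12 and -0.47 with all oocytes and at -0.12, -0.16 and -0.23 without the 6. The median of the list turned from -0.11 to 0.02.

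Of 33 genes of meiotic arrest and resumption 1 was at least 2-fold lower, a share near the 2.97% of all genes, and the median was 0.08. Wee1, a kinase that restrains the cell cycle, had 3.71, 7.65 and 14.2 CPM against 9.62, 14.7 and 55.0 CPM and a ratio of -1.48, which was -0.91 without the 6 oocytes. Its oocyte-specific relative Wee2 was at 0.16, and the cyclin Ccnb1 at -0.07. Prkaca, the catalytic subunit of protein kinase A that holds arrest, was at -0.78. Of 26 cohesin, spindle and checkpoint genes, 37 genes of maternal mRNA storage and decay and 28 factors of zygotic genome activation, 0 passed 2-fold in either direction, beside 4.20% of all genes. Cpeb4, which controls the tails of stored mRNAs, came nearest, at 0.95.

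Of 66 nuclear genes of oxidative phosphorylation, 63 of cytosolic ribosomal proteins, 34 of the proteasome and 18 of glycolysis, 0 passed 2-fold, beside 4.20% of all genes, with medians of 0.05, -0.02, 0.07 and -0.26. In glycolysis 15 of 18 had a ratio below 0, beside 54.2% of all genes, Slc2a1 at -0.48 being the lowest. Of 19 genes of pyruvate entry, Pdk2, an inhibitory kinase of pyruvate dehydrogenase, was at least 2-fold lower, beside 2.97% of all genes. It had 0, 0.611 and 6.32 CPM against 1.10, 2.39 and 8.09 CPM, with 19 of 24 6 dpp FGOs below the lowest in vivo FGO and a ratio of -1.39. Heat shock, antioxidant and hypoxia genes, 14, 27 and 19 of them, had 0 past 2-fold, beside the same 4.20%.

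The higher cholesterol genes and lower maternal complex genes were set beside the other cultured FGOs, which share the IVG step with the 6 dpp FGOs. All of these ratios are taken against the same in vivo FGOs, so their likeness is no independent result. Pooled Nlrp14 was 3701 CPM in iPSC-derived and 4943 CPM in gonad-derived FGOs, beside 4279 CPM in 6 dpp and 10114 CPM in in vivo FGOs. Pooled Stard4 was 72.4, 32.8, 41.9 and 10.2 CPM in the same order, and Msmo1 124, 107, 113 and 45.5 CPM. In in vivo GROs, which did not enter the comparison, Stard4 was 8.71 CPM and Msmo1 45.8 CPM. Pooled Extl1 was 66.0 CPM in iPSC-derived and 120.0 CPM in gonad-derived FGOs, beside 166 CPM in 6 dpp and 59.0 CPM in in vivo FGOs. Only the iPSC-derived FGOs were thus near the in vivo level. Hsd3b1 was 1.99 and 1.18 CPM in iPSC-derived and gonad-derived FGOs, beside 49.4 CPM in 6 dpp FGOs.

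**Figure D5:**
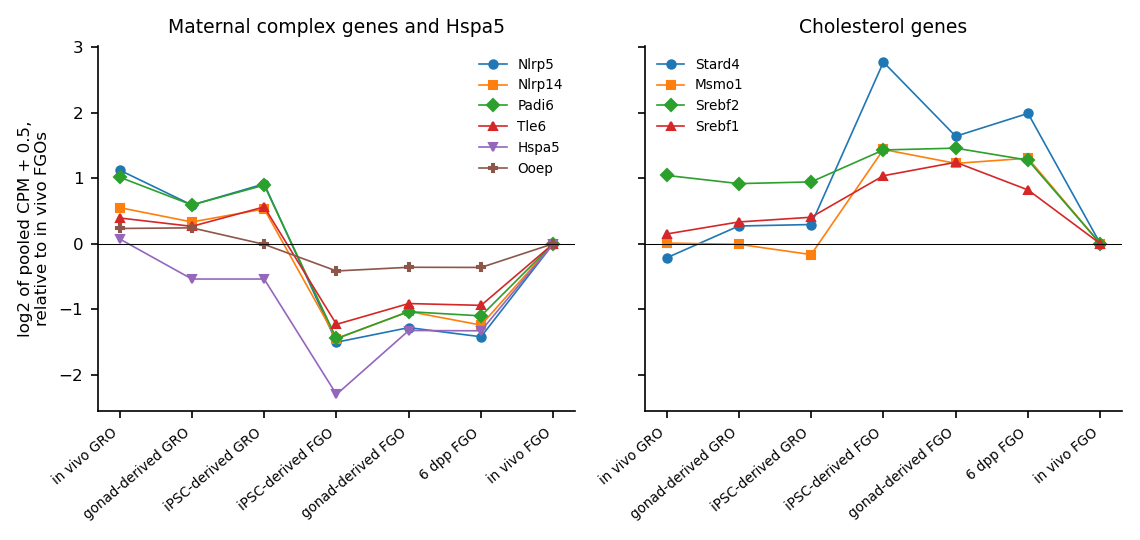
Log2 of pooled CPM + 0.5 relative to in vivo FGOs, which are 0 by construction, for 6 maternal complex and chaperone genes (left) and 4 cholesterol genes (right) in the 7 groups; lines only join points of 1 gene. The 3 cultured FGO groups lie below 0 on the left and above 0 on the right, and all are set against the same in vivo FGOs.

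The oocytes of the 2 groups varied differently among themselves. Over 8213 genes the median SD of log2(CPM + 1) was 0.279 in 6 dpp FGOs and 0.261 in in vivo FGOs. Without the 6 oocytes it was 0.263 and 0.211. The SD was at least 2 times larger in 6 dpp FGOs for 429 genes (5.22%) and in in vivo FGOs for 328 genes (3.99%), and without the 6 oocytes for 770 and 106. Of the 328, 31 are growth genes that fell, out of 47 such genes among the 8213. Tor1a, a chaperone-like ATPase, and Irf1, an interferon regulatory factor, had the largest SD ratios in 6 dpp FGOs, 7.09 and 6.56. For the 429 genes 6 dpp FGOs 18, 20, 22 and 23 were lowest, with median deviations from the group of -0.79, -0.48, -0.43 and -0.37. Their totals were 7.09, 7.45, 7.00 and 7.77 M reads, within the range of the group. The part of RNA quality in this spread was not tested.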

How the data were processed

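Single oocytes were profiled by Smart-seq2. The deposited table holds raw counts of reads, which the authors had not normalized. By the methods of the study, reads were aligned with STAR to GRCm38 (mm10), as the submitters' processing notes list, and uniquely mapped exonic reads were counted with QuasR for 1 random transcript per gene. Use of strand was not stated, so overlapping genes on opposite strands are uncertain, as are close copies, whose shared reads were not counted. Of 21950 genes in the table, 21907 matched the RefSeq table of GRCm38.p6 and 43 did not and entered the totals only. All 163 oocyte columns are mapped to a group and 0 were unused. The deposited exonic lengths served 1 check, in which the median ratio was -0.05, -0.03, -0.02 and -0.04 from the shortest to the longest of 4 equal groups of genes. No 2 libraries of the comparison were alike enough to be 1 library deposited again, the highest Pearson r between any of them being 0.989.

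From the counts, pooled CPM with exact Poisson 95% intervals, log2 ratios with a pseudocount of 0.5 CPM, and medians over oocytes were computed in Python 3.11.15 with pandas 2.3.3, numpy 2.4.6 and scipy 1.17.1, and drawn with matplotlib 3.10.9. Genes needed CPM above 1 in at least 3 FGOs. The text names, in each direction, the 12 genes of largest ratio among those whose pooled level reached 5 CPM in 1 group and that were at least 2-fold apart in pooled CPM, in medians and with any oocyte left out, and members of gene lists. Genes that did not overlap were chosen by that property. The growth genes came from gonad-derived and iPSC-derived oocytes, with a pseudocount of 1 in the score. The members and lists were chosen with earlier results of these data known. The study fitted edgeR models over all FGOs of chosen size. Here edgeR 4.0.16 and DESeq2 1.42.0, in R 4.3.3, gave alternative scaling and coefficients only. Tested on simulated data for this comparison, over 13582 genes, all 50 genes changed by a log2 of 1.5 upward and all 50 downward passed 2-fold, as did all 50 of each direction at 3, and 0 of 13382 unchanged genes did. Of those changed by 1.5, 3 of 50 upward and 8 of 50 downward did not overlap between the groups. At 3, all 50 of each direction did not overlap. The simulated oocytes were drawn independently around the pooled in vivo levels, with the same spread setting for every gene. They held no outlying oocytes, growth stages or animals. The simulation thus checks the computation only and cannot show how far such oocytes move the real counts. Scaling, pseudocount, filter, summary over oocytes, model and oocytes left out were varied. Counting the alpha protocadherins once and leaving out growth genes that fell were alternatives chosen after seeing the data. Some members of the gene lists are not reported here by name.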

Additional observations from a re-analysis of the deposited data

How the results depend on the processing

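The counts of genes past a fold depended on the pseudocount. At 0.1 CPM 50 genes were at least 4-fold higher and 94 lower, and 347 and 716 at 2-fold. At 2 CPM these were 3, 2, 75 and 172. The ratio of medians gave 7 and 20 at 4-fold, the difference of mean log2 values 3 and 13, and the edgeR coefficient 88 and 127, with 472 and 769 at 2-fold. TMM or DESeq2 scaling and other filters kept all counts within 1.5 times. Without the oocytes left out by size, 28 and 17 genes passed 4-fold, 261 were at least 2-fold higher, the median ratio turned from -0.04 to 0.02, and 42 and 64 genes did not overlap, where fewer oocytes must give more such genes. There the endoplasmic reticulum list had 1 member 2-fold apart and the granulosa list 5. Without 6 dpp FGO 12 and in vivo FGOs 7 and 19 together, 17 genes were higher in every 6 dpp FGO, and the lists of retinoid and vitamin D, steroidogenesis, study text, and theca and stroma genes had 2, 1, 3 and 0 members 2-fold apart.

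With each of the 44 oocytes left out in turn, the 4-fold counts ran from 5 (without 6 dpp FGO 12) to 20 (without in vivo FGO 19) higher and from 21 (without in vivo FGO 19) to 45 (without 6 dpp FGO 12) lower, and the 2-fold counts from 122 to 196 and 362 to 465. The median ratio stayed between -0.05 and -0.02, and 10 to 14 and 31 to 40 genes did not overlap. The difference in median growth score, 0.26, ran from 0.04 to 0.49, and that in median SD, 0.019, from 0.003 to 0.033. Members 2-fold apart ran from 2 to 4 in the retinoid list, 5 to 8 in adhesion, 1 to 5 in steroidogenesis, 3 to 5 in the study text list, 3 to 5 in granulosa, 0 to 4 in theca and stroma, 3 to 4 in endoplasmic reticulum and 15 to 19 in solute carriers. Of 1320 values of the 12 genes named by rule in each direction over the alternatives, 9 moved by more than the spread between oocytes and 0 turned direction. List members are not among these, and some of them turned, such as Gja1 and Sohlh1. With the alpha protocadherins counted once 25 genes were at least 4-fold lower, and without growth genes that fell 318 were at least 2-fold lower, both chosen after seeing the data. The cause of these shifts was not tested. No paired analysis was possible because the result comes from no test and the oocyte numbers name no shared animal or culture. Depth limits genes below about 0.626 CPM in 1 oocyte, and the unknown number of animals limits every difference.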

Other observations

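Some gene lists outside the account above also held members past 2-fold. Of 237 solute carrier genes measured, 14 were at least 2-fold lower in 6 dpp FGOs and 2 higher, with a median of -0.09, beside 2.97% and 1.22% of all genes, and without the oocytes left out by size 12 were lower and 5 higher. As single genes, the organic ion carriers Slc22a30, Slc22a14, Slc22a28 and Slc22a27 were at -1.66, -1.55, -1.37 and -1.04. The other Slc22 genes are not given here. Slc28a3, a nucleoside carrier, was at -1.84 with all oocytes and -1.60 without those left out by size. Slc39a1 and Slc25a29 moved from -1.75 to -0.63 and from -1.10 to -0.04. On the higher side, Slc27a6, a fatty acid carrier, was at 1.60 and Slc26a7, an anion exchanger, at 1.08.

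Of 17 retinoid and vitamin D genes measured, 3 were at least 2-fold higher and 1 lower, beside 1.22% and 2.97% of all genes. A ratio above 0 was seen for 12 of them, beside 45.8% of all genes. Without 6 dpp FGO 12 and in vivo FGOs 7 and 19 it was 1 higher and 1 lower. Crabp1, which binds retinoic acid in the cytoplasm, was at a ratio of 1.43 at a low level, at most 3.06 CPM in 6 dpp FGOs and 0.393 CPM in in vivo FGOs, and was 1.41 without those 3. Stra6, the receptor for the retinol carrier, was at -1.34 and -1.39, with medians of 0.880 and 3.05 CPM. Of 27 imprinted genes, 1 was at least 2-fold lower, Igf2r at -1.02, and 1 higher, Nap1l5 at 1.13, beside 2.97% and 1.22% of all genes. Without those 3 oocytes 2 were lower and 0 higher. Igf2r was -0.86 without the oocytes left out by size, and Nap1l5 0.66 without 6 dpp FGO 12 and in vivo FGOs 7 and 19, both then under 2-fold. Of 23 immediate early genes, 1 was at least 2-fold lower and 1 higher, beside 2.97% and 1.22% of all genes, with a median of -0.07. Without the oocytes left out by size 2 were lower and 3 higher, with a median of 0.23. Jun was at -1.58, but in vivo FGO 16 held 19.6 CPM and 6 dpp FGO 12 held 6.63 CPM, and its ratio ran from -2.09 to -1.02 with single oocytes left out. Dusp6 was at 1.87, but rested on 6 dpp FGO 3, with 170.2 CPM, and was 0.52 without the oocytes left out by size.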
